A study of Mus musculus with 2 samples.

Results

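Plvap-positive endothelial cells of the mouse adrenal gland that carried at least 2 of the 5 genes Sdk1, Col13a1, Lbp, Ltc4s and Nav3 were described in 1 VEGF/LysM library and 1 WT library. A cell was taken if it had at least 500 unique molecular identifiers (UMIs, each standing for 1 captured transcript), 300 or more genes detected and no more than 15% of its UMIs from mitochondrial genes. It also had to hold at least 1 Plvap UMI, fewer than 2 of the inflammatory genes Ccl2, Ch25h, Sele, Vcam1 and Icam1, and fewer than 2 of Bgn, Sema3d, Car8, Shisa9, Oit3 and Ppfia2. The members were selected on these detected UMIs. This rule found 1201 of 10083 cell barcodes, 562 of 3807 in VEGF/LysM and 639 of 6276 in WT, called marker-gated cells here. Their counterparts were the other Plvap-positive cells, 1822 in VEGF/LysM and 3005 in WT. Of those, 1357 in VEGF/LysM and 2303 in WT passed both exclusions.

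Both groups were female mice aged 12 weeks, and the question was what macrophage-derived VEGF-A does to the range of endothelial cells in the adrenal. The tested animals are labelled VEGF/LysM and the others wild type (WT). LysM is the name of the Lyz2 gene, whose promoter is widely used to drive Cre in myeloid cells. Neither the alleles nor how many mice made up each library is stated in the sources used here. The glands were dissociated with a protease in the cold after mincing. Live cells positive for CD31 and negative for CD45 were sorted for droplet RNA sequencing. Since that sort is meant to remove myeloid cells, the Vegfa level of the marker-gated cells, 1.60 CPM (counts per 1000000 UMIs) in VEGF/LysM against 9.82 CPM in WT (3 and 11 UMIs), checks nothing about a myeloid deletion.

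The VEGF/LysM library held 10323972 UMIs and the WT library 8606348. Marker-gated cells had a median of 2992 UMIs in VEGF/LysM and 1522 in WT, and the other Plvap-positive cells 2499.5 and 1268, so depth differed both between libraries and between populations. After each cell was thinned to 1000 UMIs, marker-gated cells had a median of 761 genes in VEGF/LysM and 770 in WT, close to the 757 and 768 genes of the other Plvap-positive cells. The libraries shared 10 barcodes, 3 of them borne by VEGF/LysM marker-gated cells and 1 by a WT marker-gated cell. With 1 library per group there is no replicate check on any difference between libraries, and cells of 1 library are not replicates. No p-value was therefore computed. The 95% intervals given (exact Poisson for levels, Clopper-Pearson for shares, conditional binomial for ratios) cover counting error only.

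Plvap encodes the protein of the diaphragms that span fenestrae, the pores through which endocrine capillaries exchange hormones with the blood. Sdk1 (sidekick 1) is a cell adhesion molecule of the immunoglobulin superfamily and Col13a1 a transmembrane collagen. Lbp encodes the lipopolysaccharide-binding protein, which hands bacterial lipid to CD14 and TLR4, and Ltc4s the enzyme that makes leukotriene C4. Nav3 (neuron navigator 3) is a microtubule-binding protein best known from neurons.

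The 6 genes lie on 5 chromosomes of GRCm38. Sdk1 (ENSMUSG00000039683) spans chr5:141241490-142215586 on the plus strand, 974097 bases in all, and Nav3 (ENSMUSG00000020181) spans chr10:109681259-110456204 on the minus strand, 774946 bases. Col13a1 (ENSMUSG00000058806) lies at chr10:61838236-61979108 on the minus strand, Lbp (ENSMUSG00000016024) at chr2:158306493-158332852 on the plus strand, Ltc4s (ENSMUSG00000020377) at chr11:50236461-50238616 on the minus strand and Plvap (ENSMUSG00000034845) at chr8:71497765-71511752 on the minus strand. RefSeq promoter windows of GRCm38.p6, from 250 bases before to 50 bases after the start of the gene, were at hand for 3 of the 6 genes and are printed because these genes set the population. Each is written 5′ to 3′ on the strand of its gene; Sdk1 is chr5:141241284-141241583 (plus), Col13a1 chr10:61979059-61979358 (minus) and Ltc4s chr11:50238483-50238782 (minus). Capitals mark the ETS core GGAA or its reverse complement TTCC, counted on both strands with overlapping matches allowed.
Sdk1: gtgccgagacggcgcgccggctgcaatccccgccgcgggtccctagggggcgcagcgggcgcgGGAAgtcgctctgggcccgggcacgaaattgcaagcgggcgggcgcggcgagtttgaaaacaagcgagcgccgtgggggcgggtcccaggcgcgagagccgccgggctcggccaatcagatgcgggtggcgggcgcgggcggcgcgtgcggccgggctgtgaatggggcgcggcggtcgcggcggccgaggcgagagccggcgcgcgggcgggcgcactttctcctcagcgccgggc
Col13a1: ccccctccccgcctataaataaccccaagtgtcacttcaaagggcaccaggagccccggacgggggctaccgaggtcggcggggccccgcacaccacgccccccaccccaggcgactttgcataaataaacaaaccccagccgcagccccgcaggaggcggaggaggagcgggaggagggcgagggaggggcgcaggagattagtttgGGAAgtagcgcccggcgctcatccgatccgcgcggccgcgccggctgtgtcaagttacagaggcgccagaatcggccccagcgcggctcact
Ltc4s: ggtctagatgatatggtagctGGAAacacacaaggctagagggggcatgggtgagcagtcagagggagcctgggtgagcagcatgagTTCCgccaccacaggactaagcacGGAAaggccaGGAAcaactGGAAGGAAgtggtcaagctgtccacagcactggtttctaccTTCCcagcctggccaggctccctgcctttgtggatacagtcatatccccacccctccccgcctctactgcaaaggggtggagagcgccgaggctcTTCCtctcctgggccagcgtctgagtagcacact
The ETS core, the binding letters of a transcription factor family prominent in endothelium, was found in 1 place in the Sdk1 window, 1 in the Col13a1 window and 8 in the Ltc4s window. It is present in 96.0% of all 32851 windows of the same length. The MAF half-site TGCTGA was in none of the 3 windows and in 19.5% of all windows, and the nuclear receptor half-site AGGTCA was in none of the 3 and in 16.3% of all. Motif matches are a description of these letters.

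The levels of the 5 markers chose the cells, so they are given as a description without a test. Sdk1 stood at 667 CPM (630 to 705) in VEGF/LysM marker-gated cells and 867 CPM (813 to 923) in WT ones, where CPM is taken over the summed UMIs of a population. It stood at 252 CPM in the other Plvap-positive cells of VEGF/LysM and 242 CPM in those of WT. Nav3 reached 493 CPM in VEGF/LysM and 726 CPM in WT marker-gated cells, against 198 and 264 CPM in the other cells of the same libraries. Sdk1 and Nav3 thus carried most of the marker UMIs in both libraries. Col13a1 followed with 251 CPM in VEGF/LysM and 345 CPM in WT marker-gated cells, against 114 and 113 CPM in the other cells. Lbp stood at 90.4 CPM in VEGF/LysM and 141 CPM in WT marker-gated cells, against 50.3 and 51.2 CPM in the other cells. Ltc4s was the scarcest marker, with 37.4 CPM in VEGF/LysM and 34.8 CPM in WT marker-gated cells, against 9.01 and 11.6 CPM in the other cells. Plvap itself did not set the population apart from its neighbours. It stood at 1283 CPM in VEGF/LysM and 1306 CPM in WT marker-gated cells, against 1389 and 1508 CPM in the other Plvap-positive cells.

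**Figure D1:**
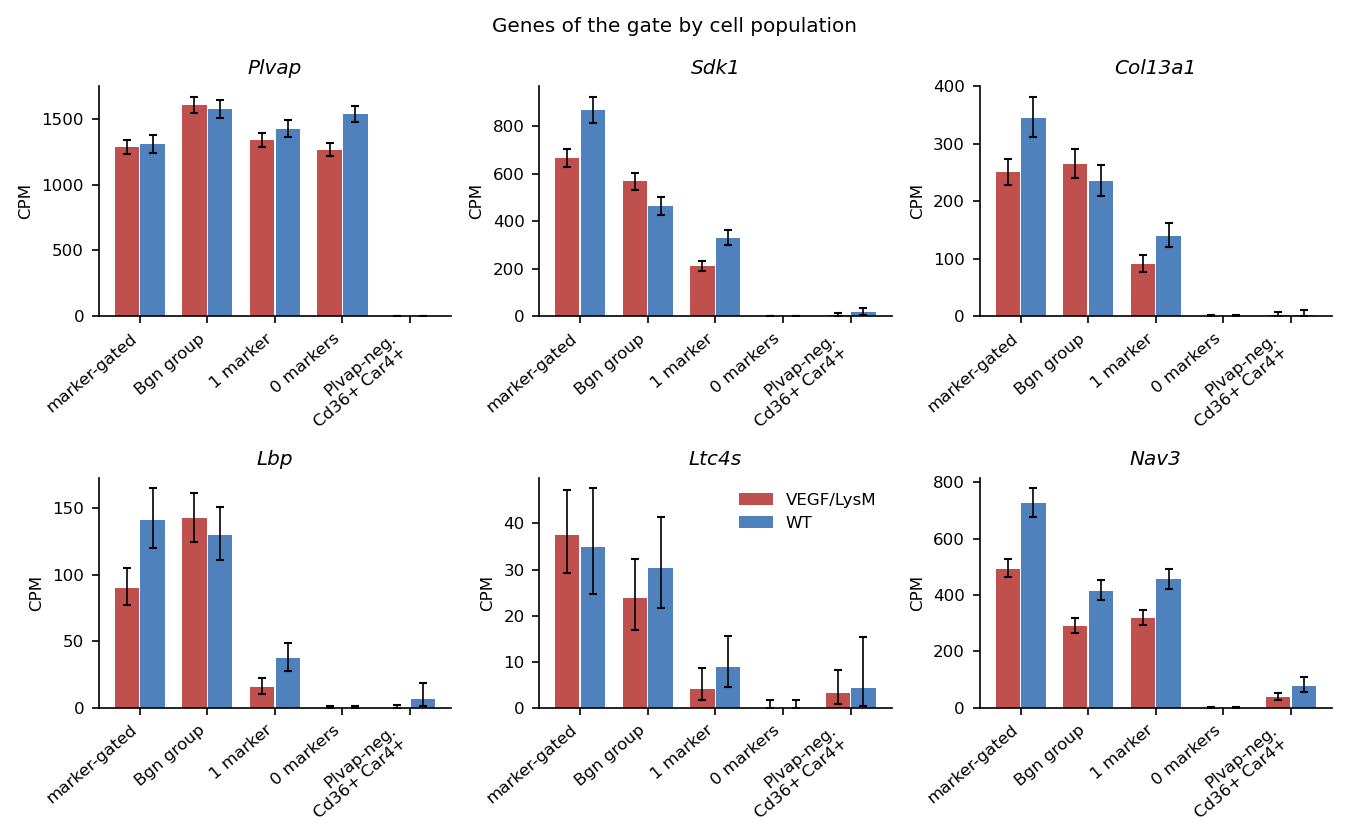
Levels (CPM, linear axes from 0, with exact Poisson 95% intervals) of Plvap and the 5 markers in VEGF/LysM (red) and WT (blue) cells; the columns are marker-gated cells, Plvap-positive cells with 2 or more of the 6 Bgn-group genes, exclusion-passing Plvap-positive cells with 1 or 0 markers, and Plvap-negative cells with Cd36 and Car4. Cells of the Bgn group also carry the markers, Col13a1 at 265 CPM in VEGF/LysM and 235 CPM in WT and Nav3 at levels below those of marker-gated cells, while the 0 for cells without markers is set by the rule.

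Individual marker-gated cells rarely held all 5 genes. Sdk1 was detected in 73.5% of the VEGF/LysM and 74.8% of the WT marker-gated cells, and Nav3 in 78.3% and 74.5%. Col13a1 was detected in 54.6% of VEGF/LysM and 49.6% of WT cells, Lbp in 24.4% and 21.8%, and Ltc4s in 9.43% and 6.10%. Most cells entered with exactly 2 markers, 379 of 562 in VEGF/LysM and 490 of 639 in WT. Among those the pair Sdk1 and Nav3 was the commonest, in 45.6% of VEGF/LysM and 44.7% of WT cells with 2 markers. Col13a1 with Nav3 followed in 79 VEGF/LysM and 84 WT cells, and Sdk1 with Col13a1 in 65 and 88. All 5 markers were found in 5 VEGF/LysM cells and in 0 of 639 WT cells, which allows a share of up to 0.469%. Just outside the rule lay 606 VEGF/LysM and 905 WT cells that passed both exclusions with 1 marker. A further 325 VEGF/LysM and 331 WT cells had 2 or more markers and were kept out by an exclusion, 313 in each library by the Bgn group.

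Free RNA can give UMIs to cells that do not express a gene, so detection over all Plvap-positive cells, whatever their markers, was set beside Plvap-negative cells with both Cd36 and Car4, markers of continuous capillaries. At 1000 UMIs per cell, Sdk1 was found in 20.6% of Plvap-positive against 0.899% of continuous capillary cells in VEGF/LysM, and in 23.4% against 1.53% in WT. Nav3 was found in 21.6% against 4.27% in VEGF/LysM and 27.5% against 6.63% in WT. Col13a1 was found in 13.2% against 0 of 445 cells in VEGF/LysM, which allows a share of up to 0.674%, and in 14.8% against 0.510% in WT. These 3 genes stood above their level in continuous capillary cells. So did Lbp, at 5.80% against 0 of 445 cells in VEGF/LysM and 6.62% against 0.510% in WT. For Ltc4s the shares were 1.42% (0.978 to 1.99) against 0.449% (0.054 to 1.61) in VEGF/LysM and 1.35% against 1.02% in WT. Detection of Ltc4s was therefore not distinguishable from that in continuous capillary cells at this depth. A second reference was the cells with 4 or more of the 12 myeloid genes used further on. Lbp was found in 2.82% (0.34 to 9.81) of them in VEGF/LysM and 5.77% (1.21 to 15.9) in WT. Sdk1 was found in 12.7% and 7.69%, Nav3 in 7.04% and 9.62%, Col13a1 in 5.63% and 3.85%, and Plvap itself in 29.6% and 40.4%. The intervals of Lbp in both libraries, and of Sdk1 and Col13a1 in VEGF/LysM, overlapped those of Plvap-positive cells.

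Whether the markers travel together was read from each marker in turn with that marker left out of the rule. Among exclusion-passing Plvap-positive cells of VEGF/LysM, cells with 2 or more of the other 4 markers had 499 CPM of Sdk1 against 249 CPM in the rest, a log2 ratio of 1.01 (0.85 to 1.16); in WT the levels were 545 and 306 CPM and the log2 ratio 0.83 (0.64 to 1.02). For Col13a1 the log2 ratio was 0.82 (0.58 to 1.06) in VEGF/LysM and 0.62 (0.34 to 0.89) in WT. For Lbp it was 1.49 (1.06 to 1.91) in VEGF/LysM and 0.78 (0.35 to 1.20) in WT. Nav3 had log2 ratios of 0.52 (0.34 to 0.70) in VEGF/LysM and 0.62 (0.42 to 0.82) in WT. Each of these 4 genes was therefore higher, beyond counting error, in cells chosen without it. For Ltc4s that held in VEGF/LysM, with a log2 ratio of 1.71 (1.01 to 2.42) over 48 and 29 UMIs. In WT the Ltc4s interval spanned 0, at 0.26 (−0.71 to 1.17) over 15 and 36 UMIs, so co-occurrence of Ltc4s was not detectable there at this depth.

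The markers were not confined to the marker-gated cells. At 1000 UMIs, 29.3% of VEGF/LysM (39 of 133) and 27.2% of WT (82 of 301) Plvap-positive cells with 2 or more Bgn-group genes held 2 or more of the 5 markers. The shares among Plvap-positive cells with fewer Bgn-group genes were 13.2% in VEGF/LysM (214 of 1620) and 16.1% in WT (314 of 1956). Cells of the Bgn group, named for the matrix proteoglycan biglycan, thus held 2 or more markers more often than cells with fewer Bgn-group genes. Lbp was lower in marker-gated than in Bgn-group cells of VEGF/LysM, with a log2 ratio of −0.66 (−0.95 to −0.37), and near equal in WT at 0.12 (−0.20 to 0.44). Sdk1 had log2 ratios of 0.23 (0.11 to 0.35) in VEGF/LysM and 0.90 (0.76 to 1.05) in WT, and Nav3 of 0.76 and 0.81, marker-gated over Bgn-group cells. Some genes outside the rule had larger ratios between these populations than the markers. Of the 15 genes named further on as higher in marker-gated cells, Sntb1 and Sirpa alone are given against Bgn-group cells. Sntb1, a syntrophin of the dystrophin complex, had log2 ratios of 1.18 (0.89 to 1.47) in VEGF/LysM and 1.43 (1.11 to 1.77) in WT. Esm1, an endothelial proteoglycan induced by VEGF, was higher in marker-gated than in Bgn-group cells by 2.03 in VEGF/LysM and 1.94 in WT on the log2 scale. Npr3, the natriuretic peptide clearance receptor, had values of 2.37 and 1.22. Sirpa, the receptor for CD47, was lower in marker-gated than in Bgn-group cells of VEGF/LysM at −0.53 (−0.79 to −0.28) and spanned 0 in WT at −0.17 (−0.45 to 0.12).

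Against all other Plvap-positive cells, 19 of 9819 genes with enough UMIs were at least 1.5-fold higher in marker-gated cells of both libraries, 0.194% of the genes, and 5 of the 19 were the markers themselves. Lower by the same measure in both libraries were 214 genes, 2.18% of the genes. They included the 6 Bgn-group genes, whose low levels follow from the exclusion. More genes were thus past the fold downward than upward in this contrast. When the other cells were limited to those that passed both exclusions, 104 of 9006 genes were higher in both libraries, 1.15% of the genes, and 193 lower, 2.14%. Against those cells most Bgn-group genes lay above 0, with log2 ratios for Bgn of 0.88 in VEGF/LysM and 0.57 in WT. Sema3d had 1.48 and 0.84, Oit3 2.10 and 1.19 and Ppfia2 1.05 and 0.88. Over few UMIs, Shisa9 had 1.49 and 0.38 and Car8 −1.14 and 0.38. The rule chose cells on genes read in the same libraries, so every ratio that follows is a description of that contrast.

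Outside the rule, the 15 genes named for the highest lower bounds had modest ratios, and 2 of them (Hmga2 and Sntb1) were at least 1.5-fold higher in both libraries. D5Ertd615e led them with 1034 CPM in marker-gated against 692 CPM in other cells of VEGF/LysM, and 1112 against 699.6 CPM in WT, log2 ratios of 0.58 and 0.67. Sntb1 stood at 192 against 122 CPM in VEGF/LysM and 229 against 132 CPM in WT, log2 ratios of 0.66 (0.47 to 0.85) and 0.80 (0.58 to 1.01). Hmga2, a chromatin architectural protein, stood at 67.9 against 38.3 CPM in VEGF/LysM and 82.1 against 49.2 CPM in WT. Its log2 ratios were 0.83 (0.50 to 1.15) and 0.74 (0.37 to 1.10). Transcriptional regulators were among the named genes. Maf, a basic leucine zipper factor, stood at 579 against 391 CPM in VEGF/LysM and 677 against 463 CPM in WT, log2 ratios of 0.56 and 0.55. Bcl6b, an endothelial repressor, stood at 130.5 against 82.0 CPM in VEGF/LysM and 181 against 127 CPM in WT. Their counterparts at the surface included receptors, a channel and a junction protein. Chrm3, the muscarinic M3 acetylcholine receptor, was the most abundant of the named genes at 1825 against 1102 CPM in VEGF/LysM and 1872 against 1334 CPM in WT. Nrp2, the co-receptor for VEGF-C and semaphorins, stood at 718 against 513 CPM in VEGF/LysM and 922 against 663 CPM in WT. Piezo2, a mechanosensitive cation channel, had log2 ratios of 0.68 in VEGF/LysM and 0.43 in WT, and Cldn5, the tight junction claudin of endothelium, 0.40 and 0.47. Sirpa had 0.52 and 0.61, or 1.74 and 1.16 when set against exclusion-passing cells alone.

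Matrix, cell cycle and signalling genes completed the named set. Adamts1, a secreted metalloprotease, stood at 329 against 227 CPM in VEGF/LysM and 429 against 293 CPM in WT, log2 ratios of 0.53 and 0.55. Edil3, an integrin-binding matrix protein, stood at 698 against 426 CPM in VEGF/LysM and 627 against 463 CPM in WT. Ccnd1, which encodes cyclin D1, had log2 ratios of 0.51 in VEGF/LysM and 0.43 in WT, the kinase Prkd1 0.47 and 0.43, and Psd3, an exchange factor for ARF6, 0.47 and 0.45. Against exclusion-passing cells alone the log2 ratios were 0.88 in VEGF/LysM and 0.79 in WT for Adamts1 and 0.75 and 0.70 for Nrp2. Psd3 had 0.78 and 0.73 there and Ccnd1 0.76 and 0.61. Plvap-positive cells that failed an exclusion thus held these genes at higher levels than the exclusion-passing other cells. Ratios fell instead for Sntb1, at 0.44 and 0.60, and for Maf and Edil3 in WT. The intervals of all 15 genes lay above 0 in both libraries, which the choice by lower bound fixes. The genes were also read in carriers of 1 marker at a time over the rest of the exclusion-passing cells. All 15 lay above 0 in carriers of Sdk1 and of Nav3 in both libraries. In Col13a1 carriers 12 did in VEGF/LysM and 14 in WT, in Lbp carriers 14 and 12, and in Ltc4s carriers 15 and 12. Edil3 in Col13a1 carriers stood at −0.04 and −0.03, and Sntb1 in Lbp carriers at −0.12 and −0.26, with intervals that spanned 0. Gene bodies of these 15 genes had a median of 115411 bases against 26872 bases over all genes tested, and the part of gene length in their ratios was not tested. Across the 9817 tested genes with a length, Spearman's rho of length with the log2 ratio was 0.08 in VEGF/LysM and 0.15 in WT.

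**Figure D2:**
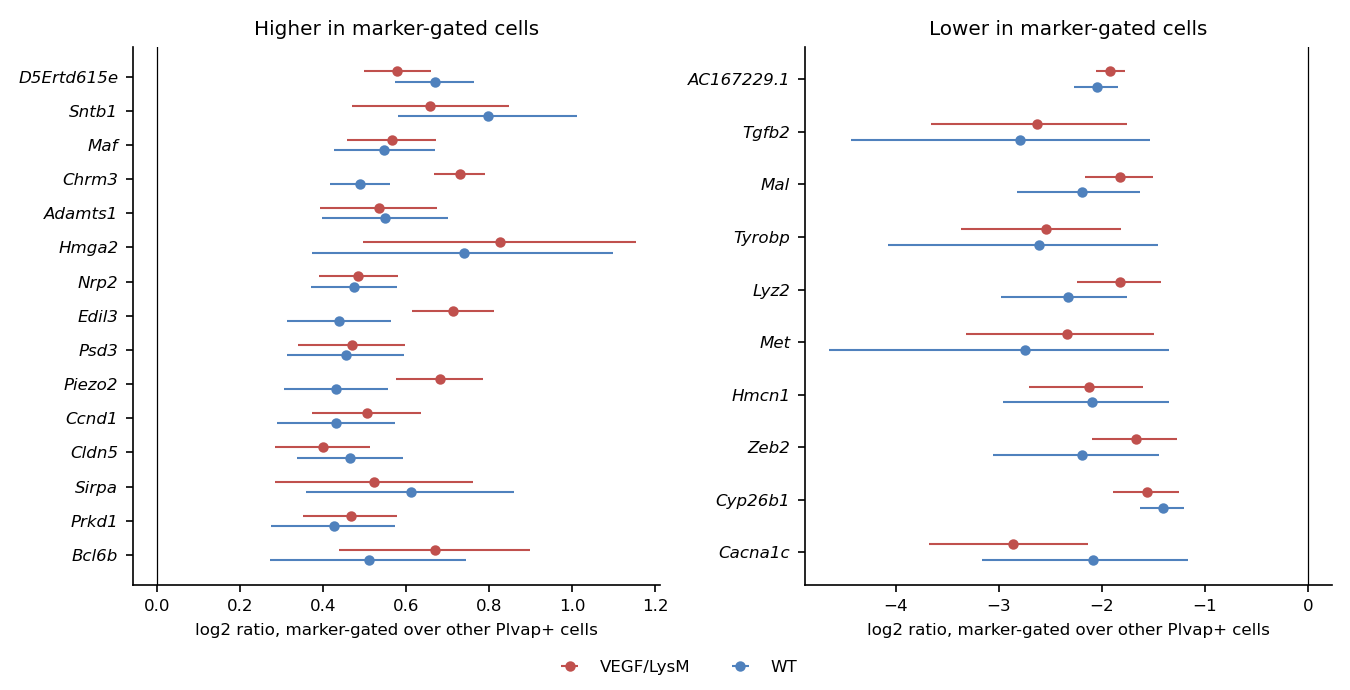
Log2 ratios of marker-gated over other Plvap-positive cells, with conditional binomial 95% intervals, in VEGF/LysM (red) and WT (blue) for the 15 genes named as higher (left) and the 10 named as lower (right). The higher genes lie at or below 0.83, whereas AC167229.1, Mal and the rest of the lower genes lie at or below −1.41.

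The named genes were also read against the Plvap-positive cells that hold at least 2 of Adamtsl2, Ehd3 and Tbxa2r, a fenestrated signature that many marker-gated cells share: 283 of the 562 VEGF/LysM and 186 of the 639 WT marker-gated cells carried it. With marker-gated cells taken out of that population, 637 VEGF/LysM and 659 WT cells remained. All 15 genes were higher in marker-gated cells of both libraries, and 0 in VEGF/LysM and 2 in WT, Hmga2 (0.65) and Bcl6b (0.72), reached 1.5-fold. The log2 ratios were smaller than against all other Plvap-positive cells, except for Cldn5 in VEGF/LysM and Bcl6b in WT. Cldn5 had log2 ratios of 0.58 (0.44 to 0.72) in VEGF/LysM and 0.38 (0.22 to 0.55) in WT. Adamts1 stood at 329 against 291 CPM in VEGF/LysM and 429 against 353 CPM in WT, log2 ratios of 0.18 (0.02 to 0.34) and 0.28 (0.09 to 0.47). Ccnd1 had log2 ratios of 0.27 (0.12 to 0.43) in VEGF/LysM and 0.16 (−0.01 to 0.34) in WT, the 1 interval of the 15 genes that spanned 0.

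Levels followed the number of markers detected in a cell. Sirpa stood at 14.8, 57.6, 119 and 115 CPM in VEGF/LysM cells with 0, 1, 2 and 3 to 5 markers, and at 59.7, 90.9, 151 and 202 CPM in WT cells. Hmga2 had 16.4, 43.4, 53.1 and 93.5 CPM in VEGF/LysM and 29.3, 55.1, 70.4 and 114.5 CPM in WT over the same steps. Adamts1 had 127, 235, 278 and 418 CPM in VEGF/LysM and 189, 324, 389 and 542 CPM in WT. Chrm3 and Maf also stood higher at each step in both libraries. In the opposite direction, Esm1 had 2071, 1597, 907 and 386 CPM in VEGF/LysM and 1684, 897, 540.5 and 276 CPM in WT. Npr3 had 1114, 758, 408 and 199 CPM in VEGF/LysM and 1013, 565, 266 and 84.2 CPM in WT. Cyp26b1, the enzyme that breaks down retinoic acid, had 251, 147, 59.0 and 33.6 CPM in VEGF/LysM and 753, 438, 217 and 80.8 CPM in WT. The cells with 1 marker were intermediate for all 8 genes plotted, and Sirpa in VEGF/LysM was level between the last 2 steps. Cells with more markers also had more UMIs, with medians of 2139, 2499 and 2751 in VEGF/LysM cells with 0, 1 and 2 markers and 1115, 1309 and 1481 in WT. The part of depth in the gradation was not tested.

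**Figure D3:**
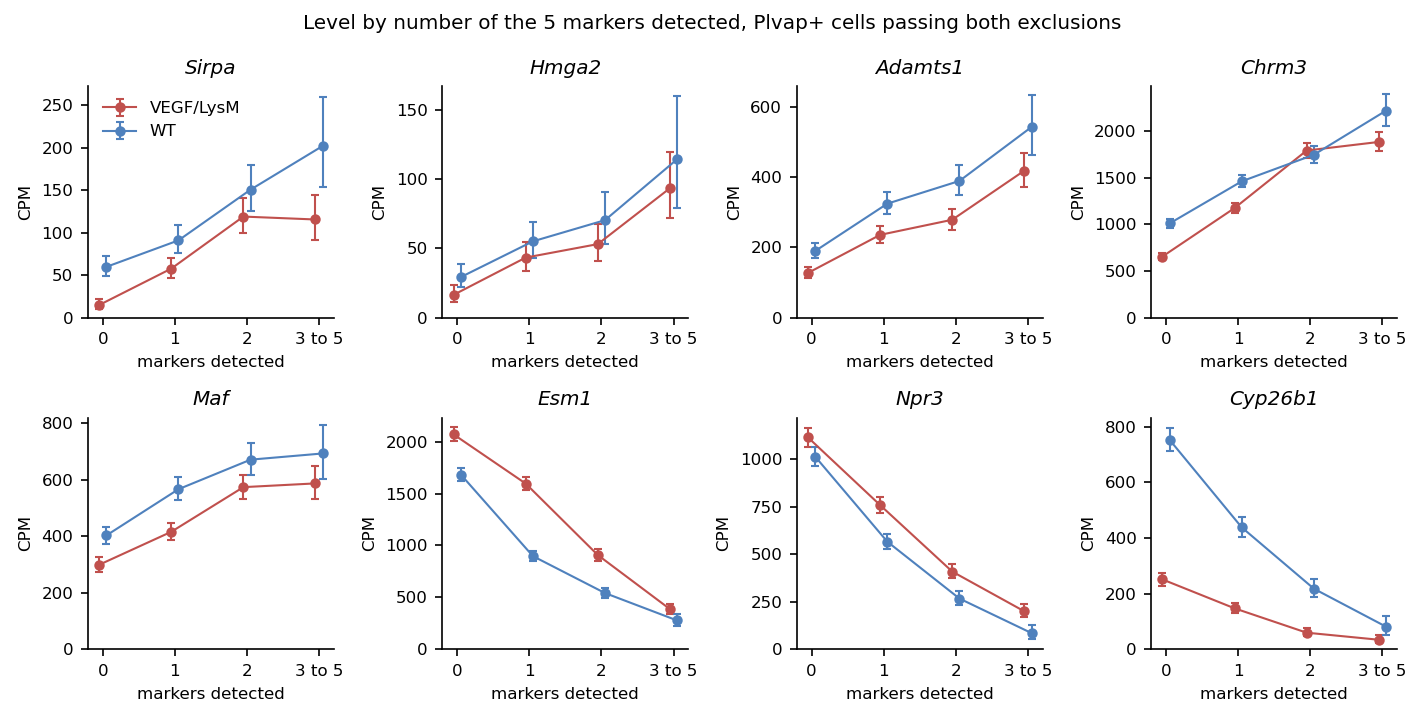
Levels (CPM, linear axes from 0, with exact Poisson 95% intervals) of 8 genes in exclusion-passing Plvap-positive cells with 0, 1, 2 or 3 to 5 of the markers, in VEGF/LysM (red) and WT (blue). Hmga2 is at 16.4 CPM with 0 markers and 93.5 CPM with 3 to 5 in VEGF/LysM, while Esm1 is at 2071 and 386 CPM.

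The genes named as lower belonged to other endothelial and non-endothelial programs. AC167229.1 stood at 237 CPM in marker-gated against 897 CPM in other cells of VEGF/LysM and 171 against 710.3 CPM in WT, log2 ratios of −1.92 and −2.05. Mal, a proteolipid of membrane rafts, stood at 44.9 against 159 CPM in VEGF/LysM and 23.2 against 106 CPM in WT. Tgfb2, a ligand of the TGF-β family, had log2 ratios of −2.63 in VEGF/LysM and −2.79 in WT, and Met, the receptor of hepatocyte growth factor, −2.34 and −2.75. These genes were those of a separate set of Plvap-positive cells. AC167229.1, Mal, Tgfb2, Met, Hmcn1 (hemicentin 1, log2 ratios of −2.13 and −2.10) and Cacna1c (an L-type calcium channel subunit, −2.86 and −2.08) were all among the 10 leading genes of 1 cluster of Plvap-positive cells described further on. Cyp26b1 stood at 49.7 against 147 CPM in VEGF/LysM and 181 against 482 CPM in WT, log2 ratios of −1.56 and −1.41. Tyrobp, a myeloid signalling adaptor, had log2 ratios of −2.54 in VEGF/LysM and −2.61 in WT, Lyz2, which encodes lysozyme, −1.83 and −2.33, and the transcription factor Zeb2 −1.67 and −2.20.

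Those 3 genes, of which Tyrobp and Lyz2 mark myeloid cells, went with the levels of the whole myeloid list. Summed over its 12 genes, myeloid UMIs made 299.9 CPM in VEGF/LysM and 147 CPM in WT marker-gated cells, against 656 and 390.4 CPM in the other Plvap-positive cells, and 8 of 9 tested members were at least 1.5-fold lower in both libraries, against 2.18% of all genes tested. No member was at 0 in marker-gated cells. Of the cells with 4 or more of the 12 genes, 9 of 73 in VEGF/LysM and 3 of 55 in WT were marker-gated. Their part in the lower genes was not tested beyond leaving those cells out, which left 158 genes lower and 29 higher in both libraries. The 5 erythroid genes summed to 247 CPM in VEGF/LysM and 182 CPM in WT marker-gated cells, against 508 and 274 CPM in the other cells. The 10 adrenocortical genes summed to 73.8 and 95.5 CPM, against 167 and 129.7 CPM. The lymphoid, mural and chromaffin lists summed to less than 10 CPM each in marker-gated cells of both libraries, and 6 of 7 chromaffin genes in VEGF/LysM and 5 of 7 in WT were at 0. Mitochondrial UMIs made 1.73% in VEGF/LysM and 1.65% in WT marker-gated cells, against 1.79% and 1.69% in the others.

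The endothelial identity of the cells did not stand out from that of their neighbours. None of the 12 pan-endothelial genes tested, Pecam1 and Cdh5 among them, reached 1.5-fold in either direction in both libraries, and their median log2 ratio was 0.00 in VEGF/LysM and −0.01 in WT, against −0.01 and −0.01 over all genes tested. Of 13 tested genes of fenestrae and caveolae, 4 were higher in both libraries, 7 lower and 0 past 1.5-fold in both. Of all 9819 tested genes 2687 were higher in both libraries and 3091 lower, with 0.194% and 2.18% past 1.5-fold. Ehd3, a membrane-remodelling ATPase, stood at 1887 against 1163 CPM in VEGF/LysM and 1955 against 1578 CPM in WT, and Nostrin, which binds nitric oxide synthase, at 312 against 222 CPM and 286 against 239 CPM. Cav1, the coat protein of caveolae, lay the other way with log2 ratios of −0.99 in VEGF/LysM and −0.42 in WT. Among 7 tested VEGF receptors and ligands, Flt4, the receptor for VEGF-C, had log2 ratios of 0.37 in VEGF/LysM and 0.30 in WT and Nrp1 had 0.28 and 0.13. Kdr, the main VEGF-A receptor of endothelium, was near equal at 0.11 and −0.07. The ligand Vegfc was the 1 member of the list past 1.5-fold, where 2.18% of all genes tested were lower by that fold. It stood at 27.3 against 58.0 CPM in VEGF/LysM and 25.9 against 42.9 CPM in WT.

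Of 11 arterial genes tested, 11 were lower in both libraries and 8 by at least 1.5-fold, where 3091 of all 9819 tested genes were lower in both and 2.18% by that fold. Their median log2 ratio was −1.56 in VEGF/LysM and −1.34 in WT, against −0.01 and −0.01 over all genes. Ptn, which encodes pleiotrophin, stood at 10.2 against 49.9 CPM in VEGF/LysM and 7.14 against 28.2 CPM in WT, and Gja4, the connexin 37 gene of arterial endothelium, at 8.02 against 26.6 CPM and 5.36 against 23.1 CPM. Sema3g stood at 73.2 against 174 CPM in VEGF/LysM and 60.7 against 154 CPM in WT. Of the Notch list, 8 of 9 tested genes were lower in both libraries, beside the same 3091 of 9819, and 1 of them, the target Hey1, by at least 1.5-fold. Nr2f2, the transcription factor of venous identity also known as COUP-TFII, stood at 656 against 495.5 CPM in VEGF/LysM and 639 against 499 CPM in WT. The venous and large-vessel list was mixed. Of its 6 tested genes 4 were higher in both libraries, where 2687 of all 9819 were, and 0 of them by 1.5-fold. Tmem252 was past 1.5-fold lower at −1.49 and −2.02. Vwf (−2.47 and −2.17) and Bmp4 (−3.24 and −1.80) had too few UMIs to be tested. Against exclusion-passing cells alone, Nr2f2 had log2 ratios of 1.23 in VEGF/LysM and 0.85 in WT, and Lrg1, of the same list, 0.85 and 0.82. Tmem252 (−1.95 and −2.35) and Aplnr (−0.30 and −0.61) lay the other way there.

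Of 13 basement membrane genes tested, 9 were higher in both libraries, where 2687 of all 9819 genes were, and 0 of them by 1.5-fold. The median log2 ratio was 0.17 in VEGF/LysM and 0.16 in WT, and members such as Sparc (0.01 and 0.01) were level. Col15a1, the collagen XV gene, had log2 ratios of 0.70 in VEGF/LysM and 0.44 in WT, and Nid2, a nidogen, 0.57 and 0.37. The laminin gene Lamb1 was past 1.5-fold lower at −1.07 in VEGF/LysM and −0.74 in WT, where its interval spanned 0 (−1.70 to 0.11). Around Ltc4s and Lbp, few pathway genes were past 1.5-fold, and both of these markers were so by the choice of the cells. Of 10 tested leukotriene and prostanoid genes, Ltc4s alone was past 1.5-fold upward, where 0.194% of all genes tested were. Alox5ap, which presents arachidonate to 5-lipoxygenase, was past it downward, where 2.18% of all genes were. Its log2 ratios were −2.54 (−4.20 to −1.26) in VEGF/LysM and −1.40 (−3.08 to −0.09) in WT, on 5 marker-gated UMIs in each library. Against exclusion-passing cells they were −1.77 and −1.12. Tbxas1, the thromboxane synthase, had log2 ratios of 0.52 in VEGF/LysM and 0.45 in WT. Of 12 tested genes of the lipopolysaccharide response, no gene but the marker Lbp was past 1.5-fold in both libraries. Its partner receptor Tlr4 was equal at 70.0 against 70.2 CPM in VEGF/LysM and 66.1 against 67.6 CPM in WT. Cd14 stood at 19.2 against 24.4 CPM in VEGF/LysM, where the interval of its log2 ratio spanned 0 (−0.92 to 0.20). In WT Cd14 was lower, at 8.93 against 19.1 CPM, on 10 marker-gated UMIs.

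The retinoic acid list divided. Rarb, the retinoic acid receptor beta, stood at 385 against 275 CPM in VEGF/LysM and 599 against 462 CPM in WT, while Cyp26b1 and the binding protein gene Rbp7 (log2 ratios of −2.20 in VEGF/LysM and −0.91 in WT) were past 1.5-fold lower. In other signatures of fenestrated cells, thinned to 1000 UMIs, 11.2% of VEGF/LysM and 4.30% of WT marker-gated cells held both Esm1 and Npr3, against 23.2% and 17.9% of the other Plvap-positive cells. Cells with 2 of Adamtsl2, Ehd3 and Tbxa2r made 18.0% of VEGF/LysM and 18.3% of WT marker-gated cells, against 14.2% and 15.6% of the others. The Esm1 and Npr3 share was thus lower in marker-gated cells beyond counting error, while the intervals of the Adamtsl2, Ehd3 and Tbxa2r share overlapped between the populations in each library.

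Clusters of all Plvap-positive cells were drawn without the 17 genes of the rule, to see whether the marker-gated cells would gather. They did not form a cluster of their own. In the cluster led by Zbtb7c, Creb5, Bean1, D5Ertd615e and Chrm3, 48.2% of VEGF/LysM cells (131 of 272) and 44.0% of WT cells (140 of 318) were marker-gated, the highest shares among the 14 clusters. It held 23.3% of the VEGF/LysM and 21.9% of the WT marker-gated cells. A cluster led by the interferon-induced genes Ifit3 and Isg15 held 29.7% of the VEGF/LysM but 4.85% of the WT marker-gated cells, and 33.1% and 21.4% of its cells were marker-gated. A cluster led by Tnxb and Mrc1, with Pcdh9 and Nlgn1 among its leading genes, held 8.01% of the VEGF/LysM and 26.6% of the WT marker-gated cells. All Plvap-positive cells divided in a like way. The Ifit3 cluster held 21.2% of them in VEGF/LysM and 3.98% in WT, and the Tnxb cluster 6.21% and 19.3%. The marker-gated cells were thus spread differently over the clusters in the 2 libraries, as were the Plvap-positive cells as a whole. Shares under 10% in both libraries stood in the cluster led by AC167229.1, Hmcn1 and Mal, at 7.92% of VEGF/LysM and 2.55% of WT cells. They also stood in the cluster led by Gzmk and Esm1, at 7.80% and 6.17%. The small cluster led by Lgr5 and Npnt had 8.47% (5 of 59) and 5.88% (2 of 34). In the cluster of Lyve1 and Stab2, scavenger receptors of sinusoids, 83.9% of VEGF/LysM and 76.1% of WT cells belonged to the Bgn group and 8.72% and 10.4% were marker-gated.

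**Figure D4:**
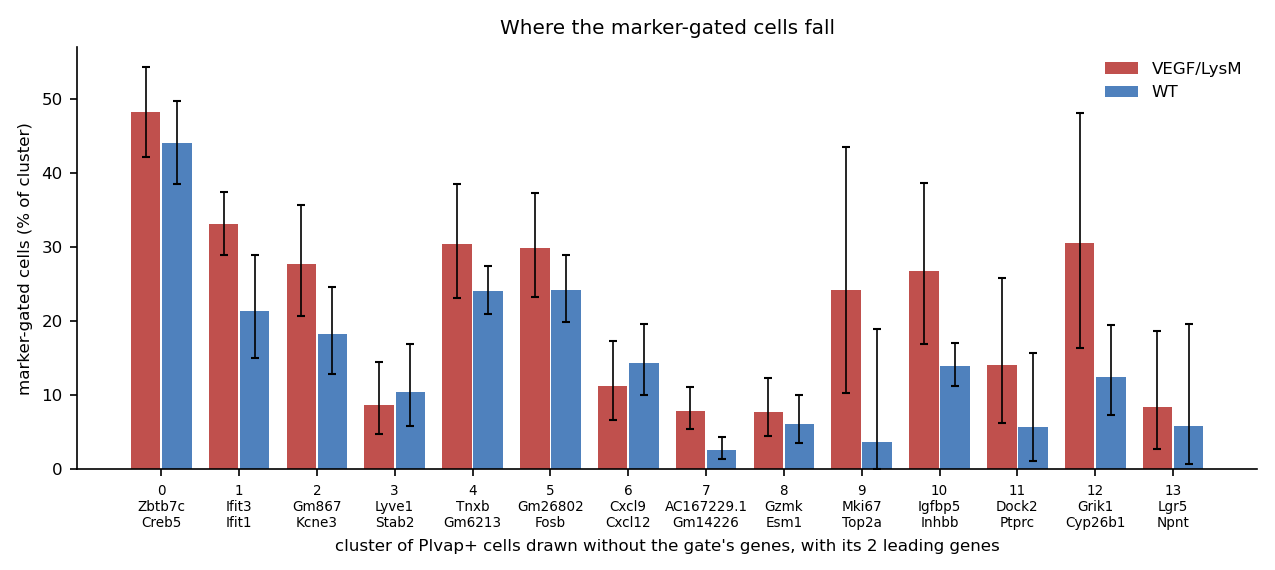
Share of marker-gated cells (% of the cells of a cluster, axis from 0, Clopper-Pearson 95% intervals) in each of 14 clusters of Plvap-positive cells of VEGF/LysM (red) and WT (blue), with each cluster's first 2 leading genes. Cluster 0 stands highest in both libraries at 48.2% and 44.0%, and cluster 7 is the lowest in WT at 2.55%.

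Between the libraries, the order of the shares of marker-gated cells changed when cells were thinned to 1 depth. With all UMIs they made 23.6% (21.9 to 25.3) of the Plvap-positive cells in VEGF/LysM against 17.5% (16.3 to 18.8) in WT, a difference of 6.04 points. VEGF/LysM cells held more UMIs, and the rule counts genes detected. With each cell thinned to 1000 UMIs the share was 12.2% (213 of 1753) in VEGF/LysM against 13.7% (310 of 2257) in WT, a difference of −1.58 points (−3.69 to 0.55). Thinning left out 290 VEGF/LysM and 2141 WT cells below 1000 UMIs. Depth per cell and the loss of shallow cells thus changed together, and their parts were not tested. Of all retained cells, the thinned share was 6.08% in VEGF/LysM against 7.76% in WT, a difference of −1.68 points (−2.85 to −0.51), and the unthinned share 14.8% against 10.4%. An order of the libraries in the abundance of these cells was therefore not read from the shares.

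Summed over all Plvap-positive cells, a choice that itself depends on depth through Plvap but not on the markers, 4 of the 5 markers had intervals of the library ratio that span 0. Sdk1 stood at 359.9 CPM in VEGF/LysM against 366 CPM in WT, a log2 ratio of −0.03 (−0.11 to 0.06). Col13a1 stood at 149 against 159.7 CPM, Lbp at 60.7 against 69.1 CPM and Ltc4s at 16.4 against 16.2 CPM, with intervals that span 0. Nav3 was the exception among the markers, at 275 CPM in VEGF/LysM against 357 CPM in WT, a log2 ratio of −0.37 (−0.46 to −0.28). Within the marker-gated cells the ratios were lower, at −0.38 for Sdk1, −0.46 for Col13a1, −0.64 for Lbp and −0.56 for Nav3. Thinned to 1000 UMIs before the rule was applied, they came to 0.10 for Sdk1, 0.09 for Col13a1, 0.16 for Lbp and −0.21 for Nav3. Plvap stood at −0.03 within marker-gated cells and at 0.19 after thinning. The marker-gated values thus moved with thinning, which also left out cells below 1000 UMIs.

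Across genes with enough UMIs, 359 of 8025 were at least 1.5-fold higher in VEGF/LysM than in WT marker-gated cells, 4.47% of the genes, and 332 were at least 1.5-fold lower, 4.14%. The marker-gated cells being compared were spread differently over the clusters in the libraries, as were all Plvap-positive cells. Cmss1, named by the rule as higher, stood at 2579 against 803 CPM, a log2 ratio of 1.68 (1.58 to 1.79), and was found in 559 of 562 VEGF/LysM and 428 of 639 WT cells; the other Plvap-positive cells showed 1.59. The MHC class II genes were higher together, 4 of 4 tested. Cd74, the invariant chain, stood at 136 against 33.9 CPM, H2-Eb1 at 65.2 against 15.2 CPM, H2-Ab1 at 72.2 against 17.9 CPM and H2-Aa at 34.2 against 11.6 CPM. These UMIs came from few cells. Cd74 was found in 51 of 562 VEGF/LysM and 10 of 639 WT marker-gated cells, and 3 cells held 67.1% of its UMIs in VEGF/LysM and 68.4% in WT. H2-Ab1 was found in 69 VEGF/LysM and 17 WT cells, with 43.0% and 30% of its UMIs in 3 cells. Leaving out cells with 4 or more myeloid genes brought the H2-Eb1 log2 ratio to 0.39. Of 38 library ratios it was the 1 that left its interval there, while Cd74, H2-Ab1 and H2-Aa stayed within theirs. At 3 or more markers the ratios of Cd74, H2-Eb1, H2-Ab1 and H2-Aa all reversed, that of Cd74 to −1.81. Emb, which encodes embigin, was carried by 3 VEGF/LysM cells that held all 52 of its UMIs and by 2 WT cells with 3 UMIs.

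Other genes named as higher were spread over many cells. Tspo, the mitochondrial translocator protein, stood at 252 against 127 CPM, a log2 ratio of 0.99 (0.72 to 1.27), and was found in 297 VEGF/LysM and 118 WT marker-gated cells. Hspb1, the small heat shock protein 27 gene, stood at 330 against 171 CPM and Ctla2a, a cysteine protease inhibitor, at 504.2 against 273 CPM. Their log2 ratios of 0.94 and 0.88 lay near the 0.68 and 0.71 of the other Plvap-positive cells. Chchd10, a mitochondrial protein, had a log2 ratio of 1.35 (0.75 to 1.98) in marker-gated and 0.28 in other cells. In the heat shock list 4 of 9 tested genes were at least 1.5-fold higher, against 4.47% of all genes, and 0 lower, in the interferon and MHC class I list 6 of 14 higher and 1 lower, and in the oxidative phosphorylation list 4 of 13 higher and 0 lower. The median log2 ratios were 0.45, 0.42 and 0.36 for the heat shock, interferon and oxidative phosphorylation lists, against −0.02 over all genes tested.

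Among genes lower in VEGF/LysM marker-gated cells, Cyp26b1 stood at 49.7 against 181 CPM in WT, a log2 ratio of −1.87 (−2.24 to −1.51), found in 35 of 562 and 82 of 639 cells. The same held in the other Plvap-positive cells, at 147 against 482 CPM. Nlgn1, the synaptic adhesion molecule neuroligin 1, stood at 10.2 against 76.8 CPM in marker-gated cells, a log2 ratio of −2.92 (−3.72 to −2.19), and at −0.65 in the other cells. Its 19 VEGF/LysM UMIs came from 10 cells and its 86 WT UMIs from 38 cells. Pcdh9, a protocadherin, stood at 103 against 319 CPM, found in 50 VEGF/LysM and 103 WT cells, with log2 ratios of −1.63 in marker-gated and −0.92 in other cells. Both genes are among the leading genes of the Tnxb and Mrc1 cluster, which held more of the WT marker-gated cells and more of all WT Plvap-positive cells. In the list of neuronal adhesion and large neuronal genes 5 of 13 tested were at least 1.5-fold lower, against 4.14% of all genes, and 1 higher, Nav2 at 0.75. The semaphorin Sema3c had a log2 ratio of −1.89, Stxbp6, a regulator of vesicle fusion, −1.82, the GTPase-activating protein Rasa3 −1.43, the interferon-inducible Ifi208 −1.36 and Nkain2, a protein that binds the sodium pump, −1.25. Oit3 and Bgn, at −2.02 and −1.10, are genes of the exclusion and are given as a description. In the continuous capillary list 6 of 11 tested genes were at least 1.5-fold lower, against 4.14% of all genes, Cd36, the fatty acid translocase, at 287 against 458 CPM. Other members lay on the other side, with log2 ratios of 0.52 for Fabp4, 0.42 for Fabp5, 0.34 for Gpihbp1 and 0.24 for Rgcc. In the other Plvap-positive cells Cd36, at 0.19, and Rbp7, at 0.69, lay above 0. Esm1 and Npr3 lay the other way with log2 ratios of 0.61 each.

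**Figure D5:**
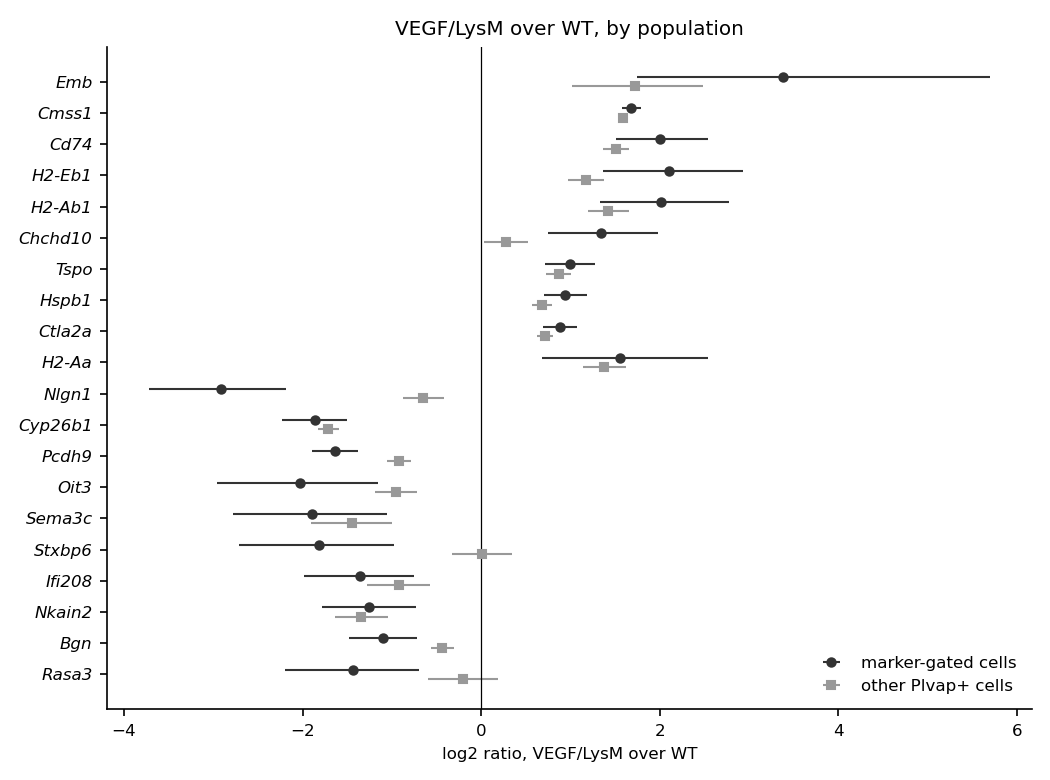
Log2 ratios of VEGF/LysM over WT, with conditional binomial 95% intervals, in marker-gated cells (black circles) and other Plvap-positive cells (grey squares) for the 10 genes named as higher and the 10 named as lower. Cmss1, Tspo and Cyp26b1 have like ratios in both populations, whereas Nlgn1 is at −2.92 in marker-gated and −0.65 in other cells.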

How the data were processed

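Droplet RNA sequencing (10x) of sorted adrenal endothelium gave 1 VEGF/LysM and 1 WT library. The authors deposited raw UMI counts per gene and barcode, with 54838 gene identifiers; the matrix headers name Cell Ranger 7.0.0, and the submitters' processing notes name Cell Ranger 7.0.1, Seurat and mm10. The deposited barcode lists hold 3807 VEGF/LysM and 6276 WT barcodes, and 14 and 142 failed the filters of 500 UMIs, 300 genes and 15% mitochondrial UMIs. The members and gene lists were chosen with earlier results of these data known.

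Counts were summed per population and expressed as CPM. With 1 library per group no test was run; a gene was tested for the fold alone, from 50 UMIs in the populations compared, and called at 1.5-fold. Genes of the rule aside, the text names genes with at least 20 CPM in either population and neither mitochondrial, ribosomal protein nor unnamed models: the 15 highest and 10 lowest by the interval bound nearer 0 in marker-gated over other cells, 10 each way between libraries, and 5 each way for the difference of those ratios. Some list members given in the text, such as Vegfa, Alox5ap, Hey1, Vwf and Bmp4, lay below 20 CPM in both populations. Cells were thinned to 1000 UMIs (seed 1) for shares. Clusters used scanpy 1.11.5 and igraph 0.11.9 (Leiden) on Plvap-positive cells. Scrublet marked 4 and 1 doublets automatically, so these calls were not used; as an alternative the highest scores were left out at 0.8% per 1000 barcodes, 116 VEGF/LysM and 315 WT cells, of them 28 and 55 marker-gated. Gene positions came from GENCODE M21, in which 54809 identifiers were found, and promoters from RefSeq. The summing, ratio and interval steps were tested on simulated data. Python 3.11.15 with numpy 2.4.6, scipy 1.17.1 and pandas 2.3.3 was used.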

Additional observations from a re-analysis of the deposited data

Results flagged for a closer look

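Of the 10 genes named for the widest gaps, 9 had VEGF/LysM over WT ratios that pointed in opposite directions in marker-gated and other Plvap-positive cells. Genes outside that choice did so too, such as Cd36 (−0.67 and 0.19). These rest on 1 library per group, and the difference was not tested. Higher in VEGF/LysM marker-gated cells and lower in the other cells were Eva1c, with 24.6 against 9.82 CPM in marker-gated cells and a gap of 1.74 between the log2 ratios, and Mest, with 26.7 against 8.93 CPM and a gap of 1.74, whose ratio in marker-gated cells turned to −0.46 in thinned cells. The same pattern held for Ints14, with a gap of 1.41, Dpp9, with 1.34, and Otud6b, with 1.19. The opposite pattern held for Stxbp6, with log2 ratios of −1.82 in marker-gated and 0.01 in other cells and a gap of −1.83. Cxcl12, the chemokine that binds CXCR4, had −0.99 in marker-gated and 0.53 in other cells, a gap of −1.52. The transcription factor genes Mecom, with −0.67 and 0.58, and Dach1, with −1.11 and 0.11, had gaps of −1.25 and −1.22, and Mecom turned to 1.04 with at least 3 markers. In the other cells the intervals of Mest, Ints14, Stxbp6 and Dach1 spanned 0.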

How the results depend on the processing

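No paired analysis was possible because each group has 1 library. The shares turned with thinning, which also left out cells below the set depth. The Plvap-positive share difference, VEGF/LysM minus WT, was 6.04 points without thinning, 3.46 with 1000 UMIs, 10% mitochondrial UMIs and no thinning, and −5.65 at 1500 UMIs. Of all retained cells it reversed to 4.40 and 1.90 under the first pair of these settings and was −4.32 at 1500 UMIs. It was −0.082 with at least 3 markers, −0.456 with at least 2 Plvap UMIs and −0.323 with Nav3 dropped.

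The 19 genes higher in marker-gated cells became 104 against exclusion-passing cells, 46 by the mean of CPM per cell, 9 at 100 UMIs, 4 at 2-fold, 101 with at least 3 markers, 30 without the highest doublet scores and 29 without cells of 4 or more myeloid genes, a setting chosen after seeing the data. The 214 lower genes became 108 at 100 UMIs, 112 at 2-fold and 345 with at least 3 markers. Between libraries, the 359 higher genes became 104 in thinned cells (of 2364 tested), 180 at 100 UMIs and 54 at 2-fold, and the 332 lower genes 162, 131 and 45. Fewer UMIs, fewer cells or a higher fold shrink these counts by construction; for the larger counts the cause was not tested.

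Of 396 values of named genes between populations, 0 changed sign, in genes chosen for interval bounds far from 0. Their sizes did move: 24 of 50 values left their interval against exclusion-passing cells, and 25 of 47 with at least 3 markers. Between libraries, 12 values changed sign, 7 of them values that had been called. With at least 3 markers Cd74 came to −1.81, H2-Eb1 to −1.01, H2-Ab1 to −0.13, H2-Aa to −1.53 and Mecom to 1.04, and in thinned cells Mest came to −0.46 and Lbp to 0.16. The other 5 were Sdk1 (0.10), Col13a1 (0.09) and Plvap (0.19) in thinned cells, Plvap (0.04) with 1000 UMIs and 10% mitochondrial UMIs, and Ltc4s (−0.31) by the mean of CPM per cell. The cause was not tested. Genes with few UMIs in a population, such as Ltc4s, are limited by depth.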

Other observations

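Outside the rule's markers and the named genes, a further 12 genes were at least 1.5-fold higher in marker-gated than in other Plvap-positive cells of both libraries; those given here were chosen after their values were seen. All were scarce. Nos2, the inducible nitric oxide synthase, stood at 30.5 against 20.1 CPM in VEGF/LysM and 39.3 against 19.4 CPM in WT, log2 ratios of 0.60 (0.11 to 1.08) and 1.02 (0.46 to 1.56). Nox4, an oxidase that makes hydrogen peroxide, stood at 18.7 against 9.01 CPM in VEGF/LysM and 27.7 against 15.8 CPM in WT. Kcnn3, a calcium-activated potassium channel of endothelium, stood at 14.97 against 9.01 CPM in VEGF/LysM and 24.1 against 12.2 CPM in WT. Slc6a8, the creatine transporter, had log2 ratios of 0.63 and 0.68, with intervals that spanned 0 in both libraries.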
